A study of Mus musculus with 24 samples.

Results

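The immunoglobulin heavy chain variable (Ighv) and kappa light chain variable (Igkv) segments were described in bulk mRNA-seq libraries of sorted mouse marrow progenitors. All 343 genes whose symbol begins with Ighv or Igkv and a number were taken, and the 186 with a raw count sum of 100 or more over the 24 libraries were kept, 96 Ighv and 90 Igkv, of 55376 genes in all. The segments were thus selected on their counts summed over these libraries, and their totals are given as a description. Of the segments just inside the limit, Igkv4-56 had 110 counts, Igkv12-40 had 105 and Igkv4-81 had 102. Of those just outside, Ighv12-3 and Igkv3-3 had 99 each and Igkv11-106 had 90. The 157 matching genes under the limit included 5 without a count, and the segments kept held 99.9% of the counts of all matching genes.

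The mice were male, homozygous TTPΔARE or WT littermates, either young or middle-aged, and untreated. TTPΔARE mice lack an AU-rich instability element of Zfp36, the gene for the mRNA-decay factor tristetraprolin (TTP), in every cell, so the progenitors and any other marrow cells carried the change. Hematopoietic stem cells (HSC, LSK CD34- Flk2- CD150+) came from 4 Y-WT, 4 Y-TTPΔARE, 5 M-WT and 3 M-TTPΔARE samples, and the myeloid-biased multipotent progenitors MPP3 from 4 Y-WT and 4 Y-TTPΔARE samples. The study itself gives 3 Y-TTPΔARE MPP3 samples and does not say which of the 4 was left out. All 4 are used here, so the MPP3 sample set differs from that of the study. The labels give replicate numbers but do not state that each library was a separate animal, so p-values measure the spread between these samples, which may be technical. Sample numbers in the titles form a block of their own for young HSC, middle-aged HSC and MPP3, and any effect of such a set cannot be told apart from age or cell type.

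Each B cell assembles its antibody genes by joining a V segment to smaller D and J segments in the heavy chain locus on chromosome 12, and a V to a J segment in the kappa locus on chromosome 6. A B cell and its descendants mainly transcribe the segments that they joined, and plasma cells make very large amounts of these transcripts. A broad B-cell population therefore spreads its V transcripts over many segments, and a small number of cells or clones over few. HSCs and MPP3s are not antibody-producing cells, and the sorted phenotype is negative for mature lineage markers.

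The V exons of 5 segments are shown because the recurrent and the called segments below depend on telling close relatives apart. They are coding bases of the V exon in mm10 (GRCm38) as annotated by GENCODE M21, on the coding strand, limited to the first 300 bases. Capitals mark bases that differ from the closest other segment of the same locus. Ighv11-2 (chr12:114048248-114048547, minus strand) and Igkv14-126 (chr6:67896345-67896642, plus strand) are the pair seen most often in the same libraries. Ighv1-26 (chr12:114788377-114788676, minus strand) reached high counts in the most libraries. Ighv10-1 (chr12:114479018-114479317, minus strand) and Igkv17-127 (chr6:67861362-67861659, plus strand) passed the test in a genotype comparison.
Ighv11-2: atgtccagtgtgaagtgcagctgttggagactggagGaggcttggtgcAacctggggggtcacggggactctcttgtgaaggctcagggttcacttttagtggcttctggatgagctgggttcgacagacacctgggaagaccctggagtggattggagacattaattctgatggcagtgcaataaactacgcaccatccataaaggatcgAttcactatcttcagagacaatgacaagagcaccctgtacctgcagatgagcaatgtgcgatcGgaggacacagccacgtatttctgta
Igkv14-126: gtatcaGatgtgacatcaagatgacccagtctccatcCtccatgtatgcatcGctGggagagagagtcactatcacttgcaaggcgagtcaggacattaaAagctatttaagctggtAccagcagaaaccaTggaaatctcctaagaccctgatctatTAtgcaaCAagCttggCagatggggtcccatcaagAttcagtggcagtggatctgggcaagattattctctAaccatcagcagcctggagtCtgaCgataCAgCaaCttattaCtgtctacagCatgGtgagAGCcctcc
Ighv1-26: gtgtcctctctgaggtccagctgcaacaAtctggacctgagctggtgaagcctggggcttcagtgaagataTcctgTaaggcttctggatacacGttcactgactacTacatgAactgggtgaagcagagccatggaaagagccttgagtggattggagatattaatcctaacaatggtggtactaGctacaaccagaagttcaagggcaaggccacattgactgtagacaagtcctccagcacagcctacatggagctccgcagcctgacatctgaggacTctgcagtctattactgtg
Ighv10-1: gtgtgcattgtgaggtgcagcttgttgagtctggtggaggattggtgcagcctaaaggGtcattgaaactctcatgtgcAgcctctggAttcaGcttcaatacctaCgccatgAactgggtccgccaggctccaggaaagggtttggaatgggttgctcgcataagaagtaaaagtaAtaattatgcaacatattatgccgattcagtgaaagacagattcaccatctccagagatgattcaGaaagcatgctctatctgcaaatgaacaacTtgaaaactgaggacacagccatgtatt
Igkv17-127: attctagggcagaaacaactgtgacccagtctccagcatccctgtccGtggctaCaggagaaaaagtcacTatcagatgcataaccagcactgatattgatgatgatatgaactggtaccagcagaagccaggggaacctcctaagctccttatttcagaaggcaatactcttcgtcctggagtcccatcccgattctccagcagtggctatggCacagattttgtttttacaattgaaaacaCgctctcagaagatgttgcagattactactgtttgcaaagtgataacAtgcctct

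The closest relatives were Ighv11-1 for Ighv11-2 (4 differing bases), Igkv14-111 for Igkv14-126 (27), Ighv1-18 for Ighv1-26 (8), Ighv10-3 for Ighv10-1 (10) and Igkv17-121 for Igkv17-127 (6), counted over the whole V exon. The library with the most Ighv1-26 held 53414 counts of it and 75 of Ighv1-18. The library with the most Ighv10-1 held 35476 counts of it and 13 of Ighv10-3. For Igkv17-127 these values were 21150 and 4075 for Igkv17-121. Over the 170 segments with a V exon coding sequence, the median identity with the closest relative was 95.1%, and 2 had an identical relative. In 27 segments with a relative of 95% identity or more, that relative held over 20% of the counts of both in the segment's highest library. How reads matching several segments were counted is not given in the sources used here, so values of such relatives are uncertain.

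All libraries held between 24261371 and 39934554 counts. Zfp36, which checks the genotype, ranged over 37.2 to 71.7 CPM (counts scaled to a library total of 1e6) in WT HSC and over 88.9 to 109 CPM in TTPΔARE HSC, and over 19.3 to 32.5 and 79.0 to 103 CPM in WT and TTPΔARE MPP3. The HSC marker Procr was 142 to 341 CPM in HSC and 62.6 to 102 CPM in MPP3. Mpo, a granule enzyme of myeloid progenitors, was 0.20 to 6.39 CPM in HSC and 223 to 1627 CPM in MPP3.

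The share of all counts that fell in the 186 segments ranged from 0.106% (95% Wilson interval 0.105% to 0.107%) in Y-TTPΔARE MPP3 replicate 4 to 2.78% (2.77% to 2.79%) in Y-WT MPP3 replicate 1, with a median of 0.438%. Intervals cover counting error only, treat each count as an independent draw, and were at most 0.0057 percentage points either side. This was far less than the spread between libraries of one group. The mean share was 0.857% ± 0.869 (SD, n = 4) in Y-WT HSC and 0.482% ± 0.145 (SD, n = 4) in Y-TTPΔARE HSC. In middle-aged HSC it was 0.561% ± 0.222 (SD, n = 5) in M-WT and 0.290% ± 0.141 (SD, n = 3) in M-TTPΔARE. In MPP3 it was 0.957% ± 1.23 (SD, n = 4) in Y-WT and 0.528% ± 0.497 (SD, n = 4) in Y-TTPΔARE. The mean was lower in TTPΔARE in each of these comparisons, and the ranges overlapped in each.

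Single libraries set the WT means of the young mice. Y-WT HSC replicate 3 had a share of 2.13%, and the other Y-WT HSC libraries had 0.686%, 0.199% and 0.419%. Without it the mean of Y-WT HSC was 0.435%, below that of Y-TTPΔARE HSC. Y-WT MPP3 replicate 1 had 2.78% against 0.186%, 0.571% and 0.292% in its group. Without it the mean of Y-WT MPP3 was 0.350%, below that of Y-TTPΔARE MPP3. Y-TTPΔARE MPP3 libraries had 0.709%, 1.15%, 0.149% and 0.106%, and the mean without replicate 2, the highest, was 0.321%.

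**Figure D1:**
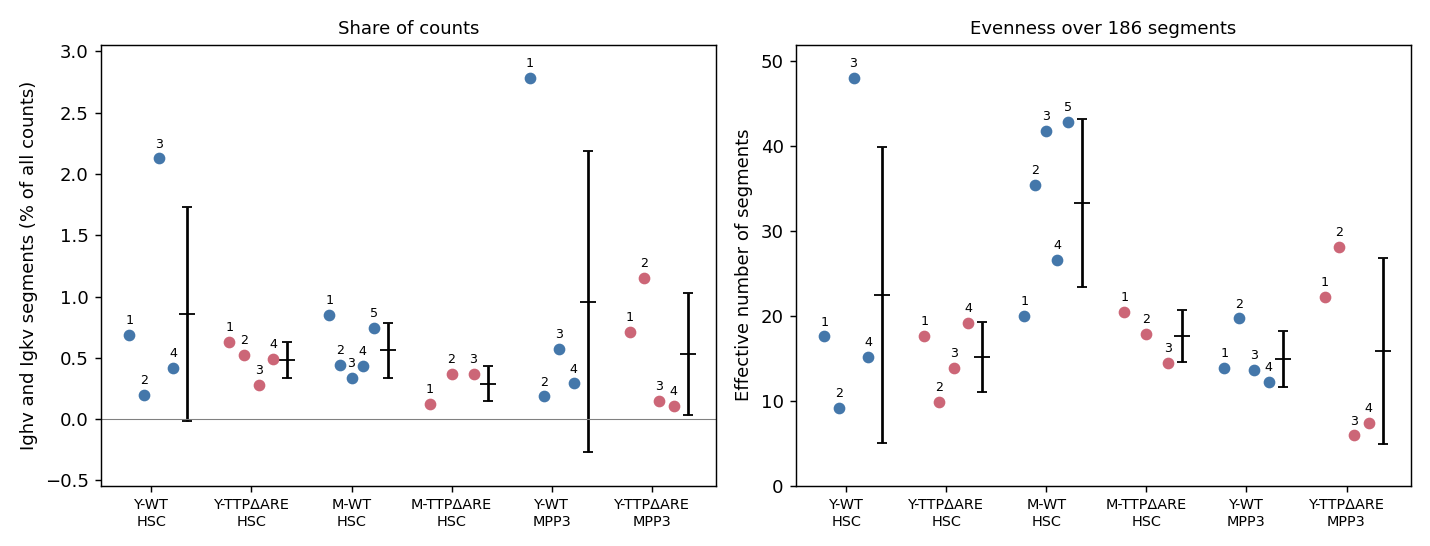
Share of all counts in the 186 Ighv and Igkv segments (left, percent) and effective number of segments (right), with a numbered point for each library (blue WT, red TTPΔARE) and the group mean ± SD in black. Y-WT HSC replicate 3 and Y-WT MPP3 replicate 1 stand at 2.13% and 2.78%, and Y-WT HSC replicate 3 also has the largest effective number, 48.1.

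The counts rested on few segments in each library. The effective number of segments, the exponential of the Shannon entropy of the counts, is the number of equally used segments that would give the same evenness. It ranged from 5.94 in Y-TTPΔARE MPP3 replicate 3 to 48.1 in Y-WT HSC replicate 3, of 186. The segments needed for 50% of the segment counts numbered from 2 to 13 (median 5). The leading segment alone held 7.83% to 31.9% of them, with intervals of at most 0.483 percentage points either side, and 22 to 109 segments had 10 counts or more.

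M-WT HSC had the highest mean effective number, 33.3 ± 9.87 (SD, n = 5), against 17.6 ± 3.02 (SD, n = 3) in M-TTPΔARE HSC. The M-WT values were 19.99, 35.4, 41.7, 26.6 and 42.9, and the M-TTPΔARE values 20.5, 17.9 and 14.5, so that the lowest M-WT library lay within the M-TTPΔARE range. Y-WT HSC had 22.5 ± 17.4 (SD, n = 4) and Y-TTPΔARE HSC 15.2 ± 4.16 (SD, n = 4). Without Y-WT HSC replicate 3 the Y-WT mean was 14.0. Y-WT MPP3 had 14.9 ± 3.29 (SD, n = 4) and Y-TTPΔARE MPP3 15.9 ± 11.0 (SD, n = 4). Annotated exon length varied from 338 to 501 bases, and with counts taken per kilobase of exon these means were 33.1, 17.8, 22.4, 14.9, 14.9 and 15.7 in the same order.

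Different segments led different libraries. The Ighv segment with the most counts was 1 of 14 over the 24 libraries, Ighv1-26 in 4 of them and Ighv6-3 in 3. The leading Igkv segment was 1 of 15, Igkv14-126 in 5 libraries. The Ighv1 family, with 56 segments here, held 43.6% of all Ighv counts, but its share ran from 1.52% to 98.9% between libraries. The shared part of the segment composition, summed as the smaller of both shares of each segment, had a median of 24.1% between libraries of a group (37 pairs, 2.74% to 49.3%) and 16.5% between groups (239 pairs, 0.251% to 43.4%). Y-WT MPP3 libraries shared the most, a median of 44.0%, and Y-WT HSC libraries the least, 7.65%. M-TTPΔARE HSC and Y-TTPΔARE MPP3 libraries, with medians of 15.7% and 15.4%, also lay below the median between groups. Of the pairs between groups, 128 joined HSC with MPP3 (median 15.7%), 95 were within HSC (17.5%) and 16 within MPP3 (24.3%). A higher overlap within a group was thus not general.

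**Figure D2:**
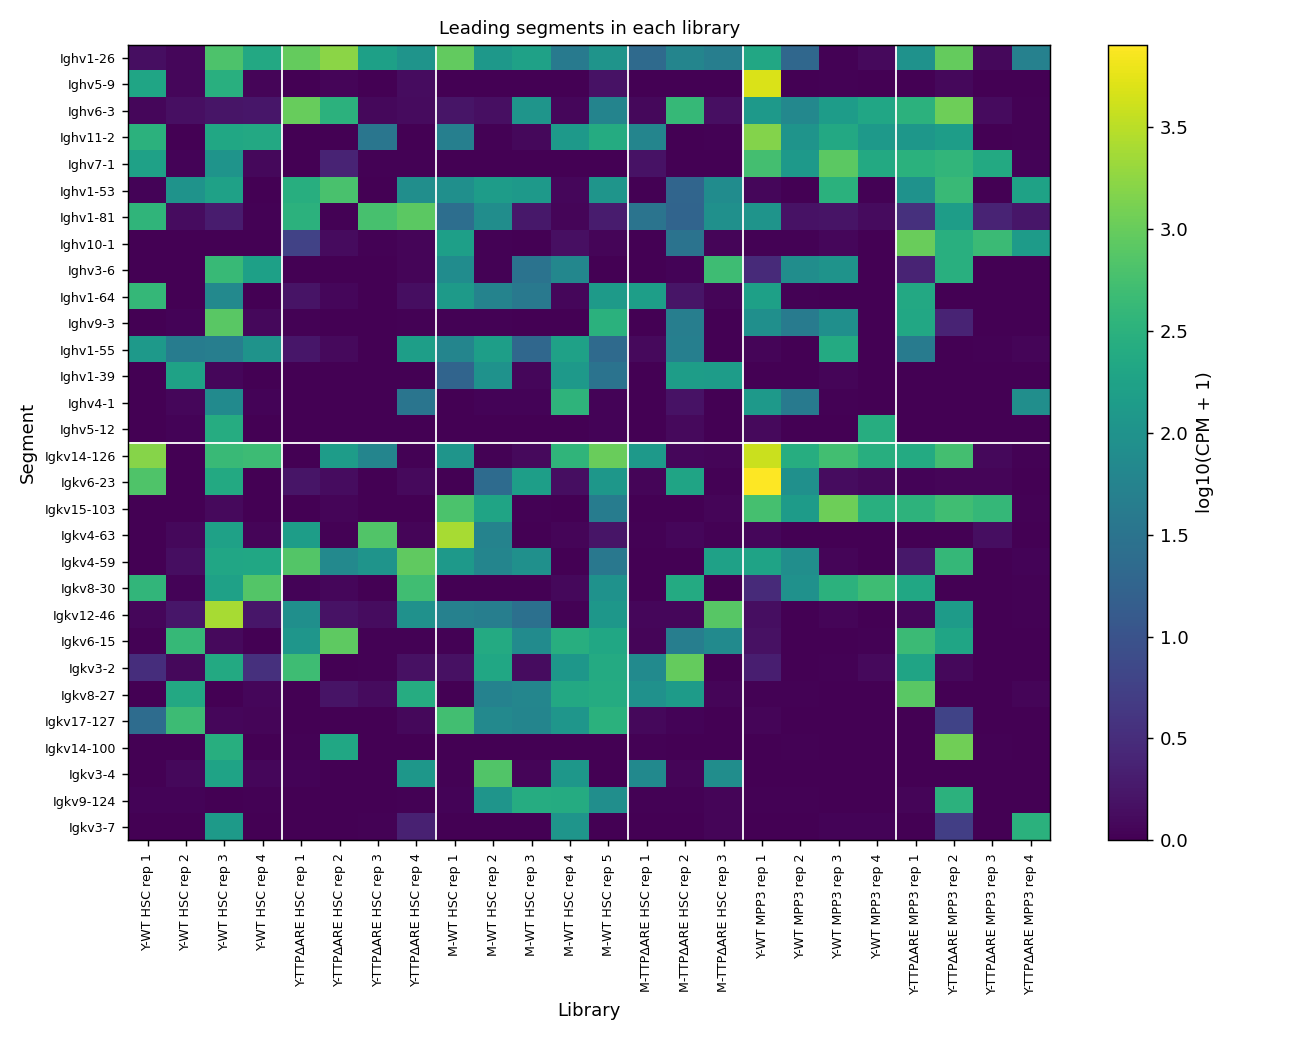
Level of the segments that led a library or had the largest count sums, as log10(CPM + 1) from dark (0) to yellow, with Ighv segments above the white line and Igkv segments below it and libraries ordered by group. Most rows are bright in a few libraries and dark in the rest, as for Ighv5-9 with 160925 of its 175062 counts in Y-WT MPP3 replicate 1.

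Many segments drew most of their counts from a single library. For the 186 segments, the highest library held a median of 49.3% of the count sum, and 93 lay above 50%. For the other 27147 genes with 100 counts or more the median was 8.33%, and 17 (0.0626%) lay above 50%. The rule uses only the count sum, but the segments were known to vary, so no test was made. The 3 Iglv segments had a median of 32.4% and 24 T-cell receptor V segments 17.9%. No segment had 10 counts or more in every library, and the median segment had them in 6.

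**Figure D3:**
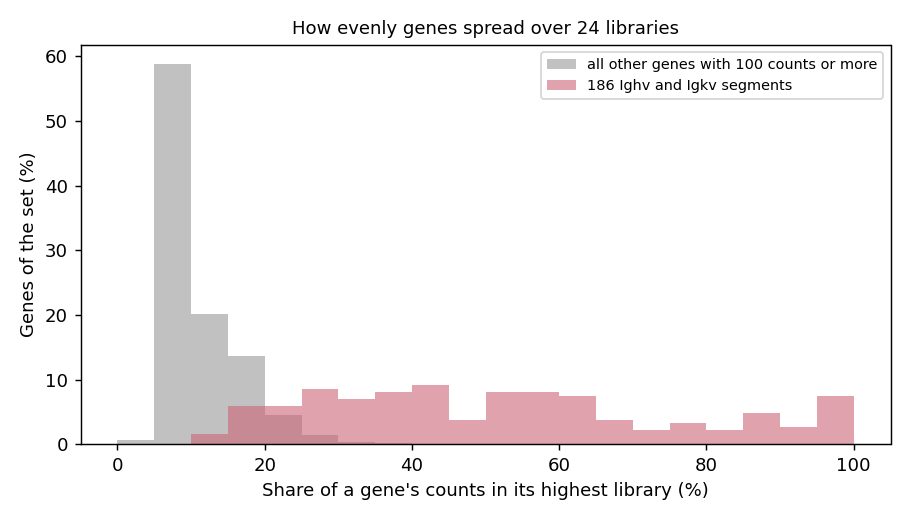
Distribution of the share of a gene's counts found in its highest library, in steps of 5 percentage points, for the 186 Ighv and Igkv segments and for all other genes with 100 counts or more over the 24 libraries. The other genes gather near 8.33% and the segments spread from 11.0% to 99.8% with a median of 49.3%.

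The largest count sums reached these totals in different ways. Igkv6-23 had 320027 counts, of which 268206 were in Y-WT MPP3 replicate 1. Ighv5-9 had 175062, of which 160925 were in the same library. Igkv4-63 had 133191, of which 98715 were in M-WT HSC replicate 1. Each of these was thus largely a count of a single library.

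Other segments recurred. Ighv1-26 (224996 counts) reached 1000 counts in 17 of the 24 libraries and had a median of 3333.5. It reached that level in all 5 M-WT and all 4 Y-TTPΔARE HSC libraries, in 2 of 3 M-TTPΔARE and 2 of 4 Y-WT HSC libraries, and in 1 of 4 Y-WT and 3 of 4 Y-TTPΔARE MPP3 libraries. Igkv14-126 (344950 counts) reached it in 15 libraries. Ighv1-53, Ighv11-2, Igkv1-117 and Igkv4-59 reached it in 14 libraries each, and 28 of the 143 segments with such a count reached it in exactly 1.

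Ighv11-2 and Igkv14-126 were high in the same libraries. This pair is known from the B-1 cell antibodies that bind phosphatidylcholine. Both had 1000 counts or more in 14 libraries, and in the remaining 10 Ighv11-2 had at most 8 counts. Igkv14-126 had at most 10 there except for 4514 in Y-TTPΔARE HSC replicate 2, where Ighv11-2 had 0. In the 14 libraries Igkv14-126 had 1.78 to 4.82 times the counts of Ighv11-2 (median 2.32). The pair was found by a scan of the 816 combinations of 24 Ighv and 34 Igkv segments with 1000 counts in at least 5 libraries. It held that level together in 93.3% of the libraries in which either did, the next pair, Ighv5-16 and Igkv9-120, in 6 of 8 libraries, and the median pair in 25.0%. The 14 libraries were 3 of 5 M-WT, 1 of 3 M-TTPΔARE, 3 of 4 Y-WT and 1 of 4 Y-TTPΔARE HSC, and 4 of 4 Y-WT and 2 of 4 Y-TTPΔARE MPP3.

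**Figure D4:**
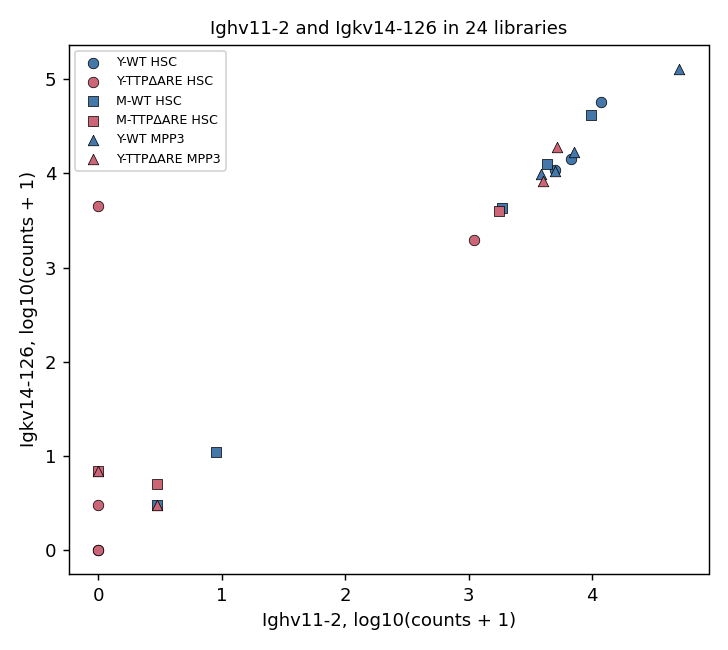
Counts of Ighv11-2 (horizontal) and Igkv14-126 (vertical) in each of the 24 libraries, as log10(counts + 1), coloured by genotype, with circles for young HSC, squares for middle-aged HSC and triangles for MPP3. The 14 libraries with both segments above 1000 counts lie apart at the upper right, and 1 Y-TTPΔARE HSC library has Igkv14-126 without Ighv11-2.

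The balance of heavy and kappa V counts did not overlap between genotypes in the young mice. Ighv counts per Igkv count were 0.642, 0.494, 0.525 and 0.428 in Y-WT HSC and 1.27, 1.30, 0.831 and 0.677 in Y-TTPΔARE HSC, without overlap. In MPP3 they were 0.530, 0.631, 0.633 and 0.596 in Y-WT and 0.966, 0.826, 1.61 and 1.25 in Y-TTPΔARE, again without overlap. In M-WT HSC they ran from 0.394 to 0.766 and in M-TTPΔARE HSC from 0.685 to 0.762, within the M-WT range.

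The lambda V segments, the alternative light chain, were higher in TTPΔARE as a share in the young mice. They held 0.632% to 24.2% of the light chain V counts in Y-WT HSC and 25.3% to 76.3% in Y-TTPΔARE HSC. In MPP3 they held 3.00% to 26.0% in Y-WT and 39.1% to 78.1% in Y-TTPΔARE. In middle-aged HSC the ranges overlapped, 0.768% to 31.3% in M-WT and 0.213% to 28.4% in M-TTPΔARE. These balances are sums over segments picked with the results known and were not tested. The lambda share and the ratio of Ighv to Igkv counts both rise when Igkv counts fall, so they are not separate findings. Iglv1, the main lambda segment, did not pass the edgeR quasi-likelihood test over all genes in either young comparison, with log2 fold changes of 2.35 (SE 1.31, adjusted p = 0.713) in HSC and 2.17 (SE 1.13, adjusted p = 0.488) in MPP3.

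**Figure D5:**
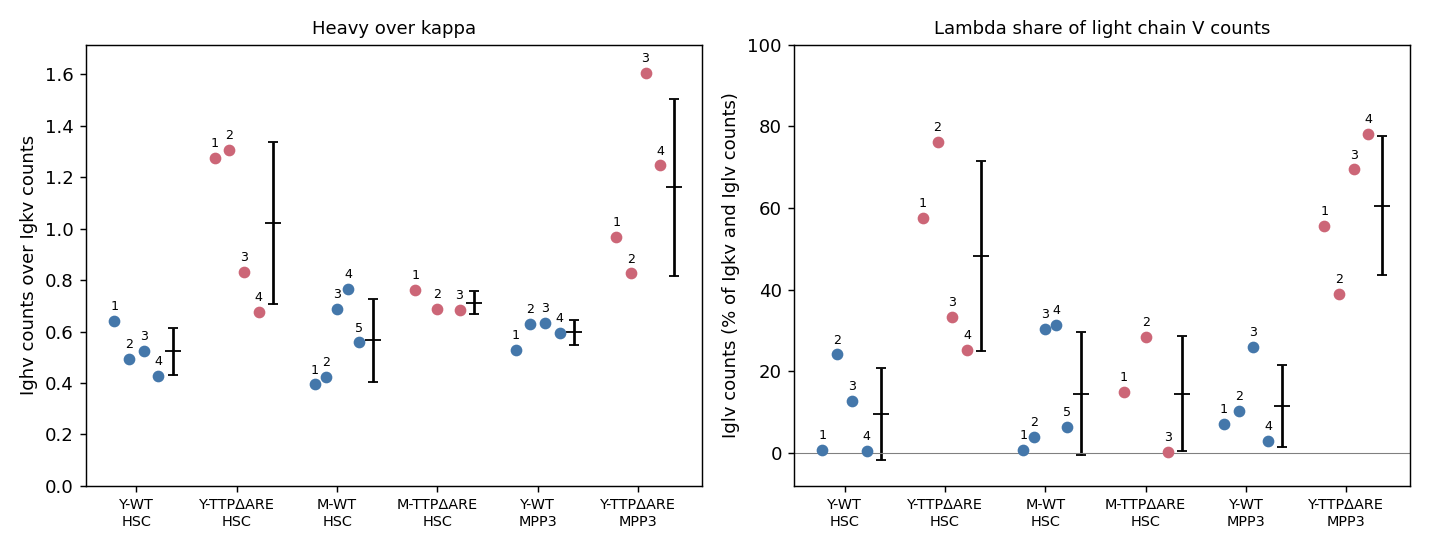
Ighv counts over Igkv counts (left) and Iglv counts as a percent of Igkv and Iglv counts (right), with a numbered point for each library (blue WT, red TTPΔARE) and the group mean ± SD in black. Y-WT and Y-TTPΔARE do not overlap in HSC or in MPP3 on either axis, and M-WT and M-TTPΔARE do.

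The V counts stood in a narrow ratio to the constant genes to which they are spliced. Ighv counts were 0.214 to 0.328 of the heavy chain constant counts, and Igkv counts 0.512 to 0.710 of Igkc, in every library, while Igkc itself ranged from 802 to 25583 CPM. The heavy chain class varied. Igha, the gene of IgA, made up 81.5% to 99.6% of the heavy chain constant counts in Y-TTPΔARE HSC, 14.0% to 79.2% in Y-WT HSC, 38.7% to 94.5% in M-WT and 29.7% to 65.0% in M-TTPΔARE. In MPP3 it made up 0.0076% to 15.3% in Y-WT and 0.026% to 53.6% in Y-TTPΔARE. Igkc, Ighm, Igha and Jchain did not pass the same test in any of the 5 comparisons.

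Markers of antibody-producing cells were present in all groups. Jchain, which joins IgA and IgM chains, was 277 to 5845 CPM. It was highest in Y-WT HSC replicate 3, the HSC library with the largest V share. The 14 genes of the plasma cell list summed to 2030 to 3253 CPM in M-WT and 826 to 2110 CPM in M-TTPΔARE, 1126 to 7141 CPM in Y-WT HSC and 1556 to 4169 CPM in Y-TTPΔARE HSC, and 721 to 4540 CPM in Y-WT MPP3 and 913 to 4768 CPM in Y-TTPΔARE MPP3. Jchain is in this list and held much of the sum, with a mean of 1753 CPM in M-WT and 924 CPM in M-TTPΔARE HSC. The sum is thus not separate from the Jchain values. Sdc1 was 9.50 to 71.9 CPM and Mzb1 0.655 to 14.8 CPM. Of the B-cell markers, Ms4a1 was 0.543 to 14.3 CPM and Cd79a 3.13 to 52.9 CPM, and neither was at 0 in all libraries of a group. The 15 reported genes of the B lineage list summed to 201 to 226 CPM in M-WT and 221 to 231 CPM in M-TTPΔARE, 238 to 336 CPM in Y-WT HSC and 272 to 311 CPM in Y-TTPΔARE HSC, and 294 to 404 CPM in Y-WT MPP3 and 373 to 495 CPM in Y-TTPΔARE MPP3. These ranges overlapped between genotypes in each of the 3 settings. In M-WT HSC this sum varied far less than Igkc (3617 to 10391 CPM), so it is not read as a level of B cells. The 7 genes of the early B lineage list summed to 4.04 to 12.3 CPM over the HSC libraries and 30.8 to 118 CPM over the MPP3 libraries. The 12 genes of the T lineage list summed to 23.1 to 34.9 CPM in M-WT and 30.3 to 53.0 CPM in M-TTPΔARE, 60.6 to 95.9 CPM in Y-WT HSC and 85.0 to 226 CPM in Y-TTPΔARE HSC, and 40.0 to 55.6 CPM in Y-WT MPP3 and 71.7 to 86.5 CPM in Y-TTPΔARE MPP3, without overlap in MPP3. The part of such cells in the V counts was not tested, and fewer cells of a type and less RNA per cell cannot be told apart in bulk samples.

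Single segments were then compared between groups with edgeR's quasi-likelihood test over all genes, with Benjamini-Hochberg adjusted p under 0.05, fold change over 1.2 and logCPM over 1.5. Between 31 and 89 of the 186 segments passed the filter on low counts in a comparison, the rest being too low or high in too few libraries. Of the segments tested, 36 of 46 were over the logCPM limit in young HSC, 79 of 89 in middle-aged HSC and 24 of 31 in MPP3. Between ages 65 of 74 were, and between cell types 29 of 39. Of all genes tested, 13786 of 24381, 13413 of 21136, 12856 of 19023, 13648 of 22280 and 13433 of 22816 were, in the same order. Only genes over the limit could be called, so called shares of segments and of all genes have unlike bases. A segment high in a single group could pass only through that group, so that counts of called segments are descriptions. Counts of segments at an unadjusted p under 0.05 or by DESeq2 are given without a share over all genes, and are likewise only descriptions. The segments varied far more than other genes. Their median standard error of the log2 fold change was 1.79 to 1.88, and that of all genes 0.142 to 0.235.

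In young HSC, none of 46 segments tested passed between Y-TTPΔARE and Y-WT, beside 0.0123% of all genes called higher and 0.0123% lower. Zfp36 itself did not pass in this fit (log2 fold change 0.96, SE 0.21, adjusted p = 0.238 by edgeR). The study reported it as significantly increased in young TTPΔARE HSC. The lack of called segments here is therefore weak evidence that none differed. At an unadjusted p under 0.05, 6 segments were higher and 6 lower, and DESeq2 called 3 higher and 7 lower. The smallest adjusted p of a segment in edgeR was 0.26. No segment was free of overlap between the groups in CPM, beside 1.75% of all genes higher and 3.08% lower. The median log2 difference of the tested segments was -0.98, and that of all genes -0.07.

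In middle-aged HSC, 5 of 89 segments were lower in M-TTPΔARE (5.62%, beside 0.71% of all genes) and 1 was higher (beside 0.7%). Ighv1-22 had 2953, 1149, 552, 1129 and 896 counts in M-WT and 2, 4 and 0 in M-TTPΔARE (log2 fold change -9.16, SE 0.80, adjusted p = 0.00051 by edgeR). Igkv17-127 had 21150, 2633, 2178, 3805 and 12570 counts in M-WT and 6, 4 and 0 in M-TTPΔARE (-11.09, SE 1.24, adjusted p = 0.0021 by edgeR). Both were high in every M-WT library and near 0 in every M-TTPΔARE library. In young HSC, Igkv17-127 had 858, 12267, 4 and 4 counts in Y-WT and 0, 0, 0 and 6 in Y-TTPΔARE. Ighv1-22 had 2, 4049, 8016 and 1 in Y-WT and 1990, 10, 1126 and 4 in Y-TTPΔARE.

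The other segments called lower were carried by some M-WT libraries. Igkv9-124 had 4, 4069, 9704, 8597 and 3308 counts in M-WT and 2, 2 and 4 in M-TTPΔARE. Ighv2-2 had 1036, 1046, 1526, 0 and 2916 against 4, 0 and 0, and Ighv14-2 had 541, 1438, 3188, 0 and 2806 against 1, 0 and 0. Igkv13-84 was higher in M-TTPΔARE with 1252, 884 and 0 counts against 36, 2, 0, 0 and 0. The tested segments had a median log2 difference of -1.69 and 68 of the 89 had a lower estimate, beside a median of 0.0074 over all genes. The filter asks for counts in about as many libraries as the smaller group, M-TTPΔARE, holds. A segment high in only some libraries thus passes more easily through the larger M-WT group. This direction is therefore a description of the segments that passed. Groups did not overlap in CPM for 5 lower segments of the 89 (beside 4.35% of all genes) and for no higher segment (7.07%). A count of 0 allows up to 3 counts, or 0.0751 to 0.124 CPM in these libraries, and fitted fold changes against such groups depend on the prior count and are no bounds.

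In MPP3, Ighv10-1 was the only 1 of 31 segments called, higher in Y-TTPΔARE (3.23%, beside 1.58% of all genes called higher). It had 35476, 10164, 13191 and 4391 counts in Y-TTPΔARE and 2, 2, 5 and 0 in Y-WT, where every Y-TTPΔARE library lay above every Y-WT library (log2 fold change 12.82, SE 0.93, adjusted p = 0.00011 by edgeR). It led the heavy chain counts of 2 Y-TTPΔARE MPP3 libraries. In HSC it was high in M-WT replicate 1 (6360 counts) and M-TTPΔARE replicate 2 (1091), and in Y-TTPΔARE HSC it had 179, 10, 2 and 4 counts. No segment was called lower (beside 0.137% of all genes), with 2 at an unadjusted p under 0.05 and 2 by DESeq2. Groups did not overlap for 3 higher segments (beside 5.13% of all genes) and for no lower segment (4.11%).

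Between ages, 10 of 74 segments were higher in M-WT than in Y-WT HSC (13.5%, beside 8.38% of all genes), and 0 were lower (beside 3.69%), with 1 lower at an unadjusted p under 0.05 and 4 by DESeq2. Among those over the logCPM limit, 10 of 65 segments and 1868 of 13648 genes were called higher. Igkv1-117 had 2161, 7586, 3979, 2544 and 6695 counts in M-WT and 0, 0, 7 and 4 in Y-WT (log2 fold change 10.32, SE 0.73, adjusted p = 3.2e-05 by edgeR). It was also high in 3 of 4 Y-WT MPP3 libraries (14119, 1352 and 7806 counts, and 0 in the other). Igkv9-124, Ighv2-2 and Ighv14-2, called in the middle-aged genotype comparison, were called here too, and both comparisons use the same M-WT libraries. Groups did not overlap for 3 higher segments (beside 6.43% of all genes) and no lower segment (9.07%). The tested segments had a median log2 difference of 0.028, with 37 higher and 37 lower estimates, beside a median of -0.036 over all genes. The segments as a set were thus not shifted in one direction. M-WT was again the larger group, through which a segment high in some libraries passes the filter more easily. In Y-WT HSC Igkv9-124 had 4, 2, 0 and 2 counts, Ighv2-2 had 0, 0, 1 and 1 and Ighv14-2 had 0, 1, 18 and 4. Igkv4-72 had 4591, 0, 0, 1351 and 2604 counts in M-WT and 0, 8, 8 and 2 in Y-WT. Igkv1-122 had 3754 counts in M-WT replicate 3, 10 to 29 in the other M-WT libraries and at most 2 in Y-WT. Both were thus called from few high libraries.

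Between cell types, 3 of 39 segments were higher in Y-WT MPP3 than in Y-WT HSC (7.69%, beside 14.5% of all genes) and 2 were lower (5.13%, beside 7.69%). Ighv6-3 had 4193, 2388, 4600 and 7813 counts in MPP3 and 6, 12, 16 and 22 in HSC (log2 fold change 8.30, SE 0.47, adjusted p = 1.4e-05 by edgeR). Igkv15-103 had 18948, 5107, 35756 and 11184 counts in MPP3 and 0, 0, 6 and 0 in HSC (13.38, SE 1.08, adjusted p = 5.5e-05 by edgeR). Both were high in every Y-WT MPP3 library. Igkv15-103 was also high in 3 of 4 Y-TTPΔARE MPP3 libraries (11769, 17757 and 11442 counts, and 2 in the other), and Ighv7-1 in the same libraries (4770 to 26882 counts in Y-WT, 11008, 13270, 6797 and 3 in Y-TTPΔARE). None of these 3 segments was confined to MPP3. Igkv15-103 had 25237, 7370 and 1698 counts in M-WT HSC replicates 1, 2 and 5, and Ighv7-1 had 6219 and 2485 in Y-WT HSC replicates 1 and 3 and 2 and 6 in the other two. Ighv6-3 had 35135 and 10214 counts in 2 Y-TTPΔARE HSC libraries, 14936 in M-TTPΔARE replicate 2 and 3971 and 2269 in M-WT replicates 3 and 5. Igkv6-17 was higher with 409, 3721, 11585 and 31 counts against 242, 165, 311 and 117. Groups did not overlap for 5 higher segments (beside 8.7% of all genes) and no lower segment (21.7%). Igkv12-46 and Igkv3-2 were lower, mostly through Y-WT HSC replicate 3 with 59070 and 5644 counts.

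Of the 22 calls over the 5 comparisons, 7 held whichever library was left out. They were Ighv1-22 and Igkv17-127 in middle-aged HSC, Ighv10-1 in MPP3, Igkv1-117 and Ighv14-2 between ages, and Ighv6-3 and Igkv15-103 between cell types. The calls of Igkv9-124 and Ighv2-2 between ages held in the 5 fits in which they passed the filter. The other 13 were lost in at least 1 fit. Igkv12-46 and Igkv3-2 each lost the call in 5 of 8 fits, without Y-WT HSC replicate 3 and without any 1 of the Y-WT MPP3 libraries. Their adjusted p reached 0.502 and 0.405 by edgeR over the fits with a library left out.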

How the data were processed

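Per the labels, RNA was purified with TRIzol and Direct-zol columns and libraries were made with a SMARTer kit, where the study's methods name SMART-seq v4. The authors used Cutadapt through Trim Galore! for trimming, STAR with GENCODE M22 for alignment to mm10 and featureCounts for the raw counts per gene that they deposited. The strand setting and the handling of multi-mapping reads are not given in the sources used here. Of the values from 1 to 20 over all genes, 71.4% were even, so counts may not be independent draws and the intervals given may be too narrow.

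Libraries were grouped by title, and all 24 were used. Shares, effective numbers and CPM used total counts. Groups were compared in pairs by edgeR 4.0.16 (R 4.3.3) with filterByExpr, TMM scaling and the quasi-likelihood test on all genes, checked on simulated data. DESeq2 1.42.0, other filters and scalings, left-out libraries and a replicate block were alternatives. The segments, gene lists and tests were chosen with earlier results of these data known. Named segments were the leading Ighv and Igkv of each library, the 5 largest of each locus, up to 5 called in each direction per comparison, the 3 either side of the count limit and marker genes. Segments named outside that rule (Igkv9-120, Ighv5-16 and closest relatives) were chosen after their values were seen. Sequences came from GENCODE M21. A marker of the B lineage list is not reported here, and the sum of that list is over its other 15 genes.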

Additional observations from a re-analysis of the deposited data

Results flagged for a closer look

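The share of all counts in the Ighv and Igkv segments was 2.78% in Y-WT MPP3 replicate 1, and this library stood apart from the other 3 of its group by a gap larger than Dixon's 95% limit for 4 samples. It was the 1 flagged value of 20 combinations of group and measure tested, and chance flags about 1 in 20.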

How the results depend on the processing

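The direction of each called segment was the same under every alternative that gave a value for it, and the counts of called segments moved most with the filter on low counts and the tool. With DESeq2 the counts higher and lower were 3 and 7 in young HSC, 0 and 25 in middle-aged HSC, 5 and 2 in MPP3, 22 and 4 between ages and 6 and 8 between cell types. Without the filter on low counts they were 2 and 7, 10 and 70, 22 and 23, 40 and 18, and 14 and 45, in the same order. Without the limit on logCPM, 5 segments were higher between cell types. Leaving out 1 library gave 0 to 1 higher and 0 to 1 lower in young HSC, 0 to 1 and 2 to 10 in middle-aged HSC, 1 to 2 and 0 to 1 in MPP3, 4 to 18 and 0 to 4 between ages, and 2 to 5 and 0 to 7 between cell types. The lowest count in middle-aged HSC came without M-TTPΔARE HSC replicate 3 and the highest without M-WT HSC replicate 2. Between ages the lowest came without Y-WT HSC replicate 4 (4 higher) and the highest without Y-WT HSC replicate 1 (18 higher). The counts of called segments in this section have no share over all genes beside them. They show only how the calls depended on the processing. The causes were not tested.

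Same-numbered libraries did not deviate together in every pair (correlations of -0.25 to 0.36). Between cell types the same-numbered pairs had -0.02, 0.27, 0.35 and 0.11, and differently numbered pairs -0.39 to 0.22. With so few pairs, this cannot decide whether the numbers pair the samples. With the replicate block the counts were 4 higher and 1 lower between ages and 2 higher and 1 lower between cell types, and the block changed no other count by more than 1.5 times. The middle-aged and age fits with the block used the libraries that share numbers. Without the block those libraries gave 0 higher in middle-aged HSC and 5 higher between ages, a comparison added after seeing the data, as was the effective number per kilobase.

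The inverse Simpson index in place of the effective number gave 22.1 in M-WT, 12.3 in M-TTPΔARE, 15.5 in Y-WT HSC, 9.60 in Y-TTPΔARE HSC, 11.1 in Y-WT MPP3 and 12.2 in Y-TTPΔARE MPP3, lower by construction; Y-WT HSC and Y-TTPΔARE MPP3 moved by less than 1 SD. The mean numbers of segments with a count, thinned to 33809 counts per library, were 101.04 in M-WT, 95.1 in Y-WT and 90.7 in Y-TTPΔARE HSC. Group means of the share of counts stayed within 1 SD under every alternative tried. Depth limits single segments near 0, where 3 counts cannot be told from none.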
